A study of Mus musculus with 26 samples.

Results

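The IL-22 response of cells with natural receptors was read from 8 of the 26 arrays of the series, picked by their titles: 4 of cells given IL-22 (replicates 1, 2, 3 and 5) and 4 of untreated cells (replicates 2, 3, 4 and 5). The cells are Ba/F3/gp130, a murine pro-B line that needs IL-3 or Hyper-IL-6 to grow and carries gp130, and in this line they also express IL-10R2 and IL-22Rα1, the chains of the natural IL-22 receptor. Both groups had been washed 4 times and kept 4 h without serum, and the stimulated cells then had 100 ng/ml of purified protein for 2 h, as no label gives another time. 12 further arrays, 6 of cells with synthetic receptors given a GFP-mCherry fusion and 6 of the same line untreated, enter 1 comparison. The other 6 arrays, of that line given mCherry-Fc, enter no comparison. All 26 arrays enter the estimate of the spread behind every p-value of the main fit. Synthetic receptors bind through nanobodies, the one for mCherry fused to IL-10R2 and the one for GFP to IL-22Rα1. No group received a control protein, and the labels do not say whether a line is 1 clone or a pool, nor whether replicates are separate cultures, so the p-values measure only the spread between these samples, which may be technical.

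IL-22 is made by lymphocytes and acts mainly on epithelial cells, which carry IL-22Rα1, and the receptor pair signals through JAK1 and TYK2 to STAT3 above all. STAT dimers bind the short palindrome known as the GAS element. A complex that holds STAT2 and IRF9 binds the ISRE, the element found at many genes that type I interferon raises in cells under viral attack. Interferon gamma induces guanylate-binding proteins, immunity-related GTPases and the machinery that presents antigen on MHC class I.

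The values are log2 intensities, 1 probe set for each of 19938 genes, and in all lists of values below the untreated replicates come in the order 2, 3, 4, 5 and the IL-22 replicates in the order 1, 2, 3, 5. A gene is called here, and said to have risen or fallen, when limma's moderated test gave a Benjamini-Hochberg adjusted p under 0.05 over all 19938 genes, with the spread estimated from all 26 arrays in 5 groups. Changes are differences of group means on the log2 scale. The natural receptor arrays had medians of 6.17 to 6.26 and correlated with arrays of their own group at 0.987 to 0.993.

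The 8 arrays split by replicate number as well as by treatment. After the group means were removed, the first principal component held 54.2% of the remaining variance and placed IL-22 replicate 5 (28.6) and untreated replicates 4 and 5 (10.6 and 19.25) apart from the other 5 arrays (-15.27 to -9.44). Of 13 measured markers of macrophages and granulocytes, 9 read higher in every one of those 3 arrays than in the other 5. Mpo, the peroxidase of neutrophil granules, read 7.16, 7.19, 10.62 and 11.0 in untreated and 6.97, 7.05, 6.97 and 10.87 in IL-22 cells. Itgam, the CD11b integrin chain of myeloid cells, read 8.85, 8.77, 11.73 and 11.99 and then 8.73, 8.98, 8.87 and 12.05. After IL-22 2 of the 13 rose and none fell (15.4% called against 11.4% of all genes). Without IL-22 replicate 5, where 1335 of all 19938 genes rose and 1777 fell, 2 of the 13 rose and 5 fell. Their summed level ran from 83.41 to 104.67 over the untreated arrays and from 83.97 to 105.15 over the IL-22 arrays, ranges that overlap, while the group means of Mpo were 8.99 and 7.97 and those of Itgam 10.34 and 9.66, since 2 untreated arrays and 1 IL-22 array have high numbers. The receptor chain probe sets went the other way: Il10rb read 11.71 to 11.79 in the 3 arrays with high numbers and 12.01 to 12.21 in the others, and Il22ra1 12.07 to 12.22 and 12.27 to 12.43. Low numbers (1 to 3) hold 3 IL-22 and 2 untreated arrays and high numbers (4 and 5) hold 1 and 2, so values within both ranges are given below for the genes that turn on the split, and within high numbers the single IL-22 array is assumed to vary like the other groups. A fit with the number range as a term called 1290 genes higher and 1731 lower after IL-22, against 1075 and 1202 without that term. The cause of the split was not tested.

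**Figure D1:**
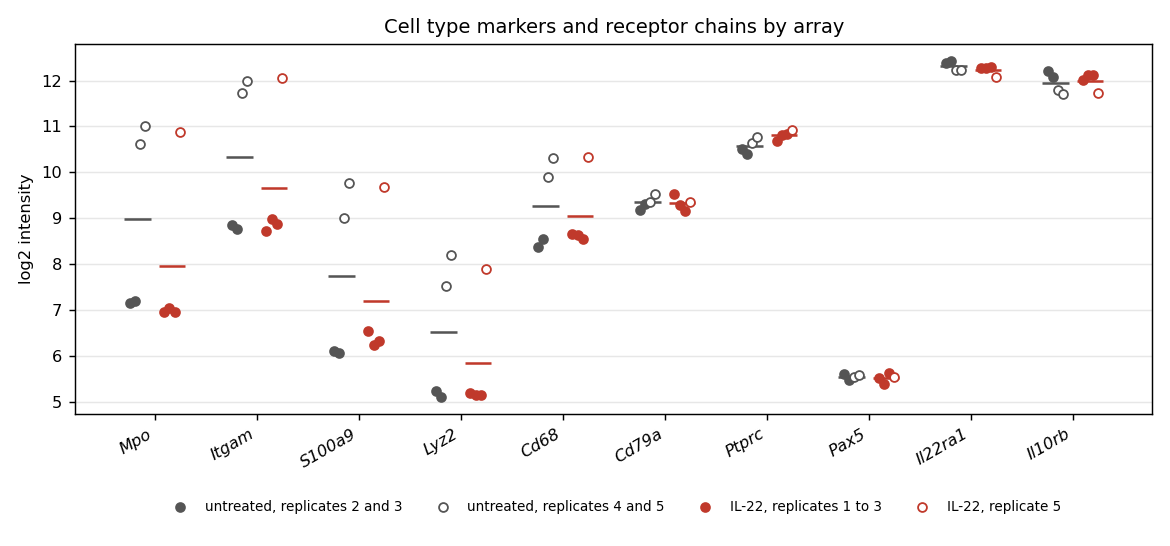
Log2 intensity (vertical axis) of 5 markers of macrophages and granulocytes, 3 B lineage genes and both receptor chains in each natural receptor array, grey for untreated and red for IL-22, open symbols for replicates 4 and 5, with bars at the group means. The open symbols of Mpo, Itgam, S100a9, Lyz2 and Cd68 stand above all filled ones in both groups, while Cd79a, Ptprc and Pax5 mix.

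The label of a pro-B line held in part. Of 15 measured pro-B markers, Cd79a and Cd79b, the signalling chains of the B cell receptor, read 9.35 ± 0.14 and 9.08 ± 0.09 (mean ± SD, n = 4) in untreated cells, and Ptprc (CD45) and Spn (CD43) 10.58 ± 0.16 and 10.08 ± 0.17. The B lineage regulators Pax5 and Ebf1 read 5.55 ± 0.06 and 4.68 ± 0.14, Rag1 and Rag2 4.86 ± 0.20 and 3.81 ± 0.12, and Cd24a 3.21 ± 0.16, all below the median gene's 6.58. The epithelial markers, 8 of 8 measured, lay at 5.05 to 7.35, and none was called after IL-22 or had an unadjusted limma p under 0.05. Among T and NK markers the granzyme gene Gzmb stood out at 12.44 ± 0.18 and rose to 13.1 ± 0.39 (adjusted p = 0.0056), a call lost within high numbers, whereas Prf1, for perforin, read 6.14 ± 0.07 and 6.16 ± 0.12. Of the 15 pro-B markers 2 fell (13.3% called, near the 11.4% of all genes), Spn by 0.44 and Cd79b by 0.29. Cd79b had an adjusted limma p of 0.0716 once replicate numbers were paired as a block and up to 0.0686 without IL-22 replicate 1 or 3.

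After IL-22 2277 genes were called, 11.4% of those tested, with 1075 higher (5.39%) and 1202 lower (6.03%), and with each array centred on its median 1028 higher and 716 lower, which moves the share of higher calls from 47.2% to 58.9%. The larger changes were mostly rises: of 196 called genes that moved at least 2-fold (0.983%), 173 were higher and 23 lower. All 4 IL-22 arrays lay above all 4 untreated arrays for 1003 genes (5.03%) and below them for 1265 (6.34%). The median change over all genes was -0.02. By gene group, the plot of shares by list shows AP-1 factors, interferon gamma-type genes, immediate early genes and type I interferon-type genes with the largest shares of higher calls among lists of more than 6 measured genes, and erythroid genes with the largest share of lower calls.

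**Figure D2:**
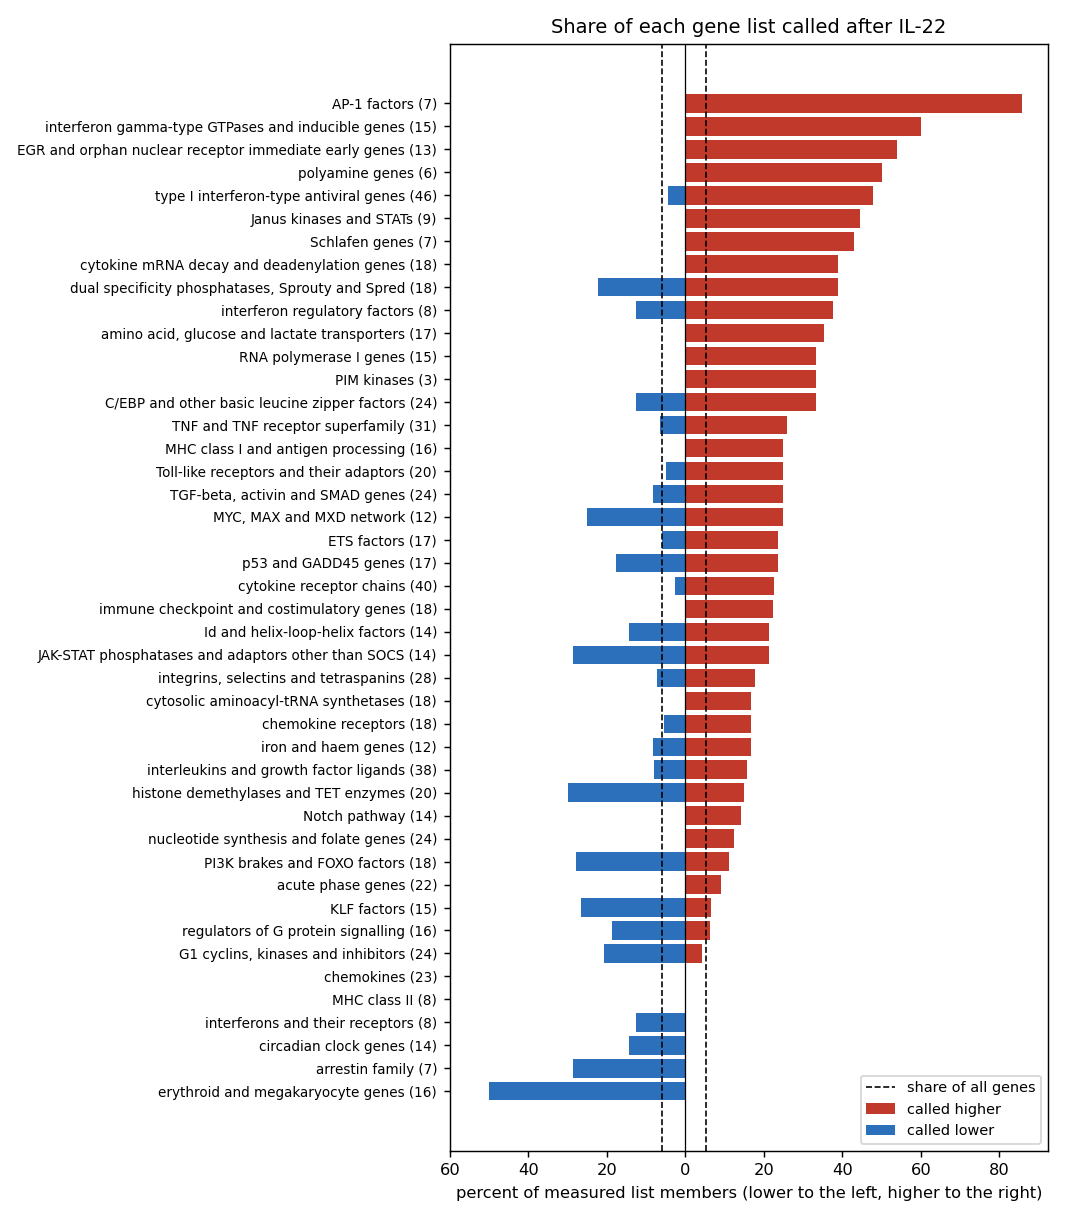
Share of the measured members of each gene list called higher (red, to the right) or lower (blue, to the left) after IL-22, in percent, with the number measured in brackets (marker lists and 1 further list not drawn), and dashed lines at the shares of all genes (5.39% and 6.03%). AP-1 factors reach 85.7% higher and erythroid and megakaryocyte genes 50% lower, and chemokines and MHC class II have no call.

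Socs3, whose product blocks JAKs bound to gp130, rose most, from 7.59, 7.38, 7.78 and 7.36 to 11.77, 11.92, 11.81 and 11.82, and all 4 IL-22 arrays stood close together. Il2ra, the alpha chain of the IL-2 receptor, went from 5.75, 5.71, 6.11 and 6.25 to 10.09, 10.15, 10.31 and 9.17, with replicate 5 lowest. Il17ra, the receptor chain shared by IL-17 cytokines, went from 7.8, 7.9, 7.57 and 7.75 to 10.52, 10.47, 10.43 and 10.11, a rise of 2.63 (SE 0.10, 6.17-fold, adjusted p = 2.42e-17). The groups did not overlap in any of the 20 largest rises, as genes picked for their size largely must not.

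Cxcr2, the neutrophil receptor for ELR chemokines, rose 5.96-fold (2.57, SE 0.17, adjusted p = 2e-12), from 8.03, 8.01, 8.74 and 9.23 to 11.02, 10.93, 11.25 and 11.1. Its untreated level was higher in the 2 arrays that also read high for myeloid markers, and its IL-22 level was not. Lbp, the lipopolysaccharide-binding acute phase protein, read 7.56, 7.57, 8.31 and 8.81 before and 10.27, 10.38, 10.42 and 10.58 after (2.35, SE 0.19, 5.11-fold), with replicate 5 the highest IL-22 array. Siah1b, a ubiquitin ligase, rose 5.74-fold (2.52, SE 0.25), and Gpr146, an orphan G protein coupled receptor, 5.64-fold (2.49, SE 0.11). Also among the largest rises, Pak6, a serine/threonine kinase of the cytoskeleton, rose 4.96-fold and read 6.54 to 6.57 in the 4 untreated and 8.78 to 8.94 in the 4 IL-22 arrays, the pseudokinase gene Prag1 rose 4.86-fold, Rnd1, a small GTPase that loosens actin fibres, 4.82-fold, and Bcar3, an adaptor of integrin signalling, 4.65-fold. Myd88, the adaptor of Toll-like and IL-1 receptors, rose 4.76-fold (2.25, SE 0.19, adjusted p = 3.92e-10), from 9.26, 9.39, 8.93 and 8.79 to 11.72, 11.4, 11.67 and 10.59. Trim30d, of the Trim30 family, rose 5.40-fold (2.43, SE 0.16).

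The falls were smaller. Mc5r, a melanocortin receptor, went from 10.51, 10.32, 10.39 and 10.35 to 7.78, 8.11, 7.69 and 8.85. St3gal1, a sialyltransferase, fell by 1.26 (SE 0.14, adjusted p = 1.83e-07), from 10.43, 10.35, 10.48 and 10.53 to 8.89, 9.01, 8.86 and 10.0, while its second, dimmer probe set read 6.81 and 6.82. In both genes replicate 5 fell least. Il15, whose product supports NK and memory T cells, fell by 1.25 (SE 0.11, adjusted p = 2.47e-09) while Il15ra, its high affinity receptor chain, rose by 0.80. Rgs2, which shortens signals of G protein coupled receptors, fell by 1.24 (SE 0.13), Fam222b by 1.16 (SE 0.08) and Mettl7a1, a lipid droplet methyltransferase-like gene, by 1.14 (SE 0.15), the last with an adjusted p of 0.0658 within high numbers. Ankrd37, a gene that hypoxia-inducible factor raises, fell by 1.17 (SE 0.27, adjusted p = 0.0031), with values of 8.13, 7.84, 9.08 and 9.39 and then 7.15, 7.13, 7.0 and 8.5 that overlap between groups and split by number range, and with an adjusted p of 0.124 when only the natural receptor arrays were fitted.

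**Figure D3:**
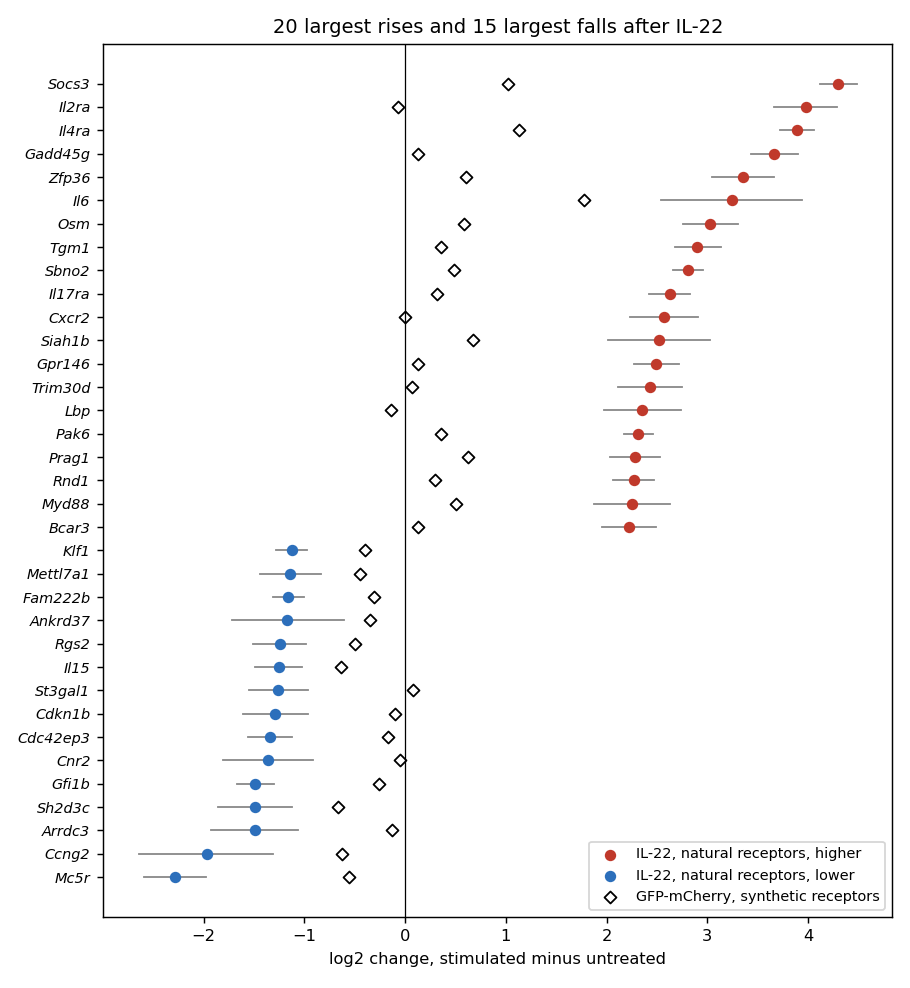
Change in log2 intensity (horizontal axis) of the 20 genes with the largest rises (red) and the 15 with the largest falls (blue) after IL-22, with 95% intervals of the model as lines, and of the same genes after GFP-mCherry in synthetic receptor cells (open diamonds, no interval drawn). The rises run from 2.22 for Bcar3 to 4.30 for Socs3 and the falls from -1.12 for Klf1 to -2.28 for Mc5r.

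Interferon regulatory factors, the transcription factors that read interferon signals, were 8 measured genes, of which 3 rose and 1 fell (50% called against 11.4% of all genes). Irf9, the DNA-binding part of the complex that reads type I interferon, rose by 1.02 (SE 0.12, 2.03-fold, adjusted p = 1.54e-07), from 7.92, 7.87, 7.78 and 7.99 to 9.14, 9.09, 9.07 and 8.36. Irf1, a STAT target and activator of interferon-type genes, rose by 0.85 (SE 0.10, adjusted p = 3.28e-07) and read 8.02, 8.03, 8.13 and 8.26 and then 9.04, 9.2, 8.97 and 8.64, with a second, dimmer probe set rising from 6.59 to 6.92. Irf7, which amplifies type I interferon, rose by 0.66 (SE 0.13), with values of 7.26, 7.49, 7.94 and 8.23 and 8.52, 8.38, 8.44 and 8.23 that touch between groups, and an adjusted p of 0.0583 with only the natural receptor arrays in the fit. Irf5 fell by 0.45 (SE 0.10). Irf2, Irf3, Irf4 and Irf8 changed by -0.01 to 0.10 and were not called. Replicate 5 was the lowest IL-22 array for all 3 genes that rose.

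Stat2, the partner of IRF9, rose 2.33-fold (1.22, SE 0.08, adjusted p = 2.1e-12), from 9.14, 9.26, 9.27 and 9.46 to 10.53, 10.67, 10.49 and 10.31. Among the 9 measured Janus kinase and STAT genes, Stat5a rose by 1.53 (SE 0.06), Stat3 by 0.98 (SE 0.06) and Jak2 by 0.74 (SE 0.09), none lower. Jak1, Tyk2, Stat4, Stat5b and Stat6 changed by -0.20 to 0.11 and were not called.

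Of 46 measured antiviral genes of the type I interferon kind, 22 rose and 2 fell, 52.2% called against 11.4% of all genes, with a median change of 0.26. In 17 of them all IL-22 arrays lay above all untreated ones, as they did for 5.03% of all genes. Oas2, an oligoadenylate synthetase that triggers RNA decay, rose most, 4.29-fold (2.10, SE 0.15, adjusted p = 2.75e-11), from 7.49, 7.28, 7.66 and 7.68 to 9.93, 9.8, 10.0 and 8.79. Parp14, an ADP-ribosyltransferase that acts with STAT6, rose 3.11-fold (1.64, SE 0.16) and read 8.37, 8.29, 8.55 and 8.71 and then 10.26, 10.39, 10.38 and 9.45. Trim30a rose 2.71-fold (1.44, SE 0.10), from 9.9, 9.55, 9.8 and 9.81 to 11.27, 11.36, 11.41 and 10.78. In these 3 genes the groups stayed apart, with replicate 5 between the untreated arrays and the other IL-22 arrays. Trim30a and Trim30d are members of 1 gene family, and how far their probe sets tell them apart was not tested.

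Other called members had smaller rises. Eif2ak2, the kinase PKR that halts translation when it meets double-stranded RNA, rose by 0.98 (SE 0.16), from 8.75, 8.52, 8.49 and 8.55 to 9.59, 9.77, 9.88 and 8.99. Ddx58, the RNA sensor RIG-I, rose by 0.68 (SE 0.10) and Zbp1, a sensor of Z-form nucleic acid, by 0.83 (SE 0.12). Of enzymes that attach ubiquitin-like proteins or ADP-ribose, Herc6, the mouse ISG15 ligase, rose by 0.82 (SE 0.08), Parp9 by 0.92 (SE 0.10), its partner Dtx3l by 0.61 (SE 0.09), and Trim25, which activates RIG-I, by 0.70 (SE 0.08). Helz2 rose by 0.80 (SE 0.10), Oasl2 by 0.98 (SE 0.16), Oas3 by 0.60 (SE 0.12), Oas1b by 0.43 (SE 0.11), Ifit1, which binds foreign RNA caps, by 0.77 (SE 0.12), Xaf1 by 0.51 (SE 0.13) and Tor3a by 0.42 (SE 0.10). The smallest rises were those of Ifi35 (0.34), Trim21 (0.33), Adar (0.25) and Ifitm3 (0.18), whose calls were lost when single arrays were left out, with adjusted p up to 0.0683, 0.18, 0.12 and 0.215. These arrays were IL-22 replicates 2 and 3 for Ifi35, all but IL-22 replicate 5 for Trim21 and Ifitm3, and all but IL-22 replicate 5 and untreated replicate 3 for Adar. Oas1b lost its call without untreated replicate 4 (adjusted p = 0.0556). With replicate numbers paired as a block, Trim21, Adar and Ifitm3 had adjusted p of 0.114, 0.137 and 0.192.

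Many classical interferon genes were not called with all arrays in the fit. Mx1 read 4.05 ± 0.10 and 3.87 ± 0.06 (n = 4 and 4, adjusted p = 0.223), Mx2 4.15 ± 0.13 and 4.39 ± 0.28, Ifit3 4.67 ± 0.13 and 4.76 ± 0.10, Rsad2, for viperin, 5.69 ± 0.06 and 5.62 ± 0.05, Ifih1, for the RNA sensor MDA5, 4.92 ± 0.06 and 4.85 ± 0.10, and Usp18, the ISG15 protease, 7.12 ± 0.80 and 7.29 ± 0.38, and none of these was called. All but Usp18 lay below the median gene's untreated level of 6.58. Within low numbers, however, Usp18 rose by 0.67 (limma adjusted p = 0.000222) and Mx2 by 0.47 (limma adjusted p = 0.0341). Within high numbers they changed by 0.0 and -0.2. Mx1, Ifit3, Rsad2 and Ifih1 were not called within low numbers either. Bst2, Ifi27, Ifitm1 and Ifitm2 were brighter, at 8.50 to 13.59 untreated, and changed by -0.01 to 0.07. Pml, the scaffold of nuclear bodies, fell by 0.36 (SE 0.08), and Ifit2 fell by 0.45 (SE 0.14, adjusted p = 0.0339), a call lost when IL-22 replicate 1, IL-22 replicate 5, untreated replicate 2 or untreated replicate 3 was left out (adjusted p up to 0.133).

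2 genes of this kind outside the lists, named after their values were seen, changed as much. Cgas, the cytosolic DNA sensor, rose by 2.09 (SE 0.16, 4.24-fold, adjusted p = 1.41e-10), from 7.33, 7.05, 6.72 and 6.5 to 9.06, 9.22, 9.21 and 8.46. Plscr1, a scramblase with antiviral activity, rose by 1.66 (SE 0.08, 3.15-fold), on both of its probe sets. In neither gene did replicate 5 fall back to the untreated level.

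Among 15 measured genes of the interferon gamma kind 9 rose and none fell (60.0% called, median change 0.40). Irgm1, a GTPase that acts against intracellular bacteria, rose 3.21-fold (1.68, SE 0.24, adjusted p = 8.75e-06), from 8.71, 8.79, 8.68 and 8.72 to 10.77, 11.05, 10.84 and 8.96. That replicate 5 stood 0.26 above the untreated mean of replicates 4 and 5, against 2.14 within low numbers. Cd274, for the checkpoint ligand PD-L1, rose by 1.21 (SE 0.20), from 7.55, 7.51, 8.21 and 8.72 to 8.96, 9.0, 8.85 and 10.01, and here replicate 5 was highest. The ligands of CXCR3 rose from dim levels: Cxcl11 by 1.02 (SE 0.15), Cxcl10 by 1.04 (SE 0.18) and Cxcl9 by 0.40 (SE 0.09). Cxcl10 read 5.62, 5.6, 5.55 and 5.27 untreated and 6.76, 6.96, 6.9 and 5.59 with IL-22. Gbp7, a guanylate-binding protein, rose by 0.69 (SE 0.12). Gbp3, Iigp1 and Gbp5 rose by 0.53, 0.47 and 0.38, with adjusted p up to 0.102, 0.196 and 0.184 when 1 array was left out, in Gbp3 IL-22 replicate 2 or untreated replicate 4, in Iigp1 any but IL-22 replicate 5 and untreated replicate 5, and in Gbp5 any but IL-22 replicate 5 and untreated replicate 2. With the paired block Gbp3 and Iigp1 had adjusted p of 0.0716 and 0.12. Gbp4, Gbp8, Gbp9, Ciita, Nos2 and Ido1 changed by -0.16 to 0.06 and were not called. With only the 8 natural receptor arrays in the fit 5 of the 15 were called.

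**Figure D4:**
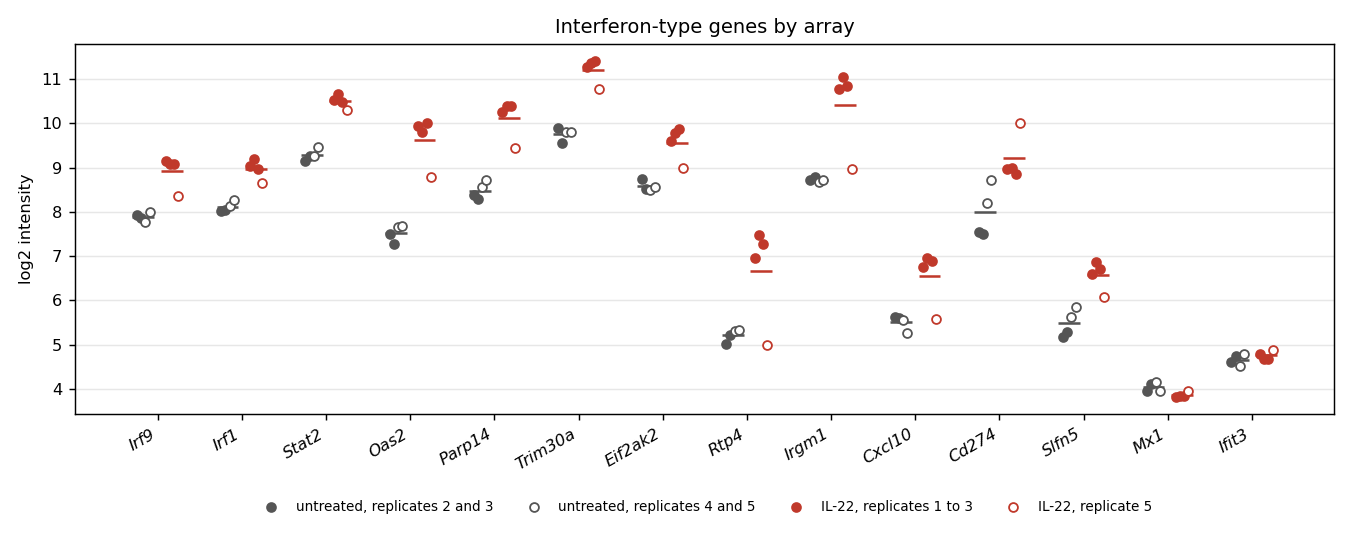
Log2 intensity (vertical axis) of 14 interferon-type genes in each natural receptor array, grey for untreated and red for IL-22, open symbols for replicates 4 and 5, with bars at the group means. IL-22 replicate 5 (open red) stands among the untreated arrays for Rtp4 and Cxcl10, between the groups for Oas2 and Parp14, and above all other arrays for Cd274, while Mx1 and Ifit3 show no separation.

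Interferon-type genes shifted less in IL-22 replicate 5 than in the other 3 IL-22 arrays, and so did several other lists. Set against the untreated arrays of its own number range, the median shift of the 46 antiviral genes was 0.41, 0.50, 0.44 and 0.10 in IL-22 replicates 1, 2, 3 and 5, that of the 15 interferon gamma-type genes 0.44, 0.75, 0.52 and 0.11, and that of all genes -0.01, -0.04, -0.04 and -0.02. Over the 7 AP-1 genes it was 1.02, 0.89, 0.78 and 0.61, over the 13 immediate early genes 0.45, 0.50, 0.48 and 0.22, over the 18 dual specificity phosphatase, Sprouty and Spred genes 0.28, 0.32, 0.22 and 0.08, and over the 16 erythroid genes -0.26, -0.20, -0.27 and -0.12. Rtp4, a receptor transporting protein, is the clearest case, with 5.01, 5.22, 5.32 and 5.34 untreated and 6.96, 7.47, 7.27 and 5.0 with IL-22 (1.45, SE 0.28, adjusted p = 0.000448, and 0.0827 with only the natural receptor arrays in the fit). It changed by 2.12 within low numbers (adjusted p = 7.92e-09) and by -0.33 within high numbers (adjusted p = 0.358). Within low numbers 28 of the 46 antiviral genes were called higher, where 6.29% of all genes were, and within high numbers 5 of 46, where 2.65% were. Those that kept their rise in both include Oas2 (2.52 and 1.12), Parp14 (2.01 and 0.82), Trim30a (1.62 and 0.97), Herc6 (0.88 and 0.64) and Eif2ak2 (1.11 and 0.47), and Irf9 (1.20 and 0.47), Stat2 (1.37 and 0.95), Cd274 (1.41 and 1.55) and Slfn4 (0.80 and 0.60) did so too. Socs3 changed by 4.34 and 4.25, and Cgas by 1.97 and 1.85. Interferon-type genes whose call was lost within high numbers include Irf1 (1.05 and 0.45), Irf7 (1.07 and 0.14), Oasl2 (1.36 and 0.09), Oas3 (0.98 and 0.04), Ddx58 (1.00 and 0.23), Ifit1 (1.01 and 0.29), Helz2 (1.00 and 0.25), Zbp1 (1.09 and 0.40), Parp9 (1.17 and 0.44), Trim25 (0.81 and 0.33), Xaf1 (0.76 and 0.05), Gbp7 (0.98 and 0.18), Cxcl10 (1.27 and 0.18), Cxcl11 (1.14 and 0.53), Slfn5 (1.5 and 0.33) and Batf2 (1.17 and 0.28). Outside these lists the same held for Fosl1 (1.69 and 0.25), Tgfb3 (1.22 and 0.20), Ier3 (2.69 and 0.92), Tnf (2.3 and 1.21), Pik3ip1 (-0.96 and -0.38), Pias3 (-0.85 and -0.15), Skil (0.97 and 0.24) and Ccr2 (0.86 and 0.49). Of the 170 genes named in the text that were called, 69 were not called within high numbers and 5 not within low numbers. The difference between the ranges was not tested, and 1 array stands for IL-22 in the high one.

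MHC class I and antigen processing moved little. Of 16 measured genes 4 rose (25.0% called, median change 0.10): Psmb10, an immunoproteasome subunit, by 0.43 (SE 0.07), Psme2, a proteasome activator, by 0.28, Tapbpl, a peptide editor, by 0.33, and Tap1, a chain of the peptide transporter, by 0.27. Psme2 lost its call without IL-22 replicate 2, untreated replicate 2 or untreated replicate 4 (adjusted p up to 0.0663), Tapbpl without any array but IL-22 replicates 3 and 5 and untreated replicate 2 (up to 0.21), and Tap1 without any but IL-22 replicate 1 and untreated replicates 4 and 5 (up to 0.165). Of the 16 genes 2 were called without IL-22 replicate 2, untreated replicate 3 or untreated replicate 4, and 7 without IL-22 replicate 5. Psme2 had an adjusted p of 0.129 with the paired block. B2m, Tap2, Psmb9 and Psme1 changed by -0.13 to 0.07. Nlrc5, the transactivator of MHC class I genes, depended on the probe set: the brightest of its 19 probe sets, which stands for the gene here, changed by 0.13 and was not called, while all 19 read higher with IL-22, by 0.13 to 1.35, and their mean rose by 0.76 (SE 0.11, adjusted p = 1.16e-05). That mean was 7.3, 7.41, 7.34 and 7.31 untreated and 8.3, 8.25, 8.38 and 7.46 with IL-22, so replicate 5 again stood near the untreated arrays. None of 8 MHC class II genes was called, and none had an unadjusted limma p under 0.05, while 1 was called lower without IL-22 replicate 5.

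The interferons themselves were not called: Ifnb1 read 4.88 ± 0.21 and 4.86 ± 0.04 (n = 4 and 4), Ifna4 5.10 ± 0.14 and 5.08 ± 0.07 and Ifng 5.81 ± 0.21 and 5.85 ± 0.21. Of their receptor chains Ifngr1 fell by 0.39 (SE 0.07, adjusted p = 0.000416), and Ifnar1, Ifnar2, Ifngr2 and Ifnlr1 changed by -0.12 to 0.12 without a call. Ifngr2, however, changed by 0.32 within low numbers (limma adjusted p = 0.00503) and by 0.27 within high numbers. Schlafen genes, which restrain growth and viral translation in lymphocytes, were 7 measured genes of which 3 rose (42.9% called). Slfn5 rose by 1.08 (SE 0.15), from 5.18, 5.28, 5.63 and 5.86 to 6.6, 6.87, 6.72 and 6.07, Slfn4 by 0.72 (SE 0.08) and Slfn2 by 0.46 (SE 0.13), the last not called without IL-22 replicate 1, IL-22 replicate 5, untreated replicate 2 or untreated replicate 3 (adjusted p up to 0.11). Slfn1, Slfn3 and Slfn9 changed by -0.02 to 0.06 and Slfn8 by 0.29 (adjusted p = 0.0792).

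Promoter windows of 300 bases, most of them upstream of a transcript start (RefSeq, GRCm38.p6), were held for 15614 of the 19938 genes and searched on both strands for TTCNNNGAA, the GAS form, and for the ISRE form, which is TTTC, a pair of any bases and TTTC again, or GAAA, such a pair and GAAA on the other strand. Both forms can share bases. A gene with several windows counts once. GAS matches stood in the windows of 8.99% of these genes and ISRE matches in 3.89%. Of 34 antiviral genes with a window, 8 held a GAS match (23.5%) and 15 an ISRE match (44.1%), and of the 7 interferon gamma-type genes with a window 2 and 5. Of the 20 largest rises 15 had a window, with a GAS match in 6 (40%) and an ISRE match in 3 (20%), and of the 15 largest falls 12 had one, with 1 and 0. Among the interferon-type genes called higher, 31 had a window, and 7 held a GAS (22.6%) and 13 an ISRE match (41.9%). Of all genes of these lists, called or not, 83 had a window, with a GAS match in 17 (20.5%) and an ISRE match in 29 (34.9%). The 83 include the 31 called higher, so these shares are not independent, and a difference between them was not tested. These are letters in a window, not bound sites.

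6 windows are shown, 3 of the largest rises and 3 of interferon-type genes, chosen after values and matches were seen because they show each form alone, repeated and overlapping, with the matched bases in capitals. They lie at chr11:117969317-117969616 on the minus strand (Socs3, 1 GAS match), chr14:55713443-55713742 on the minus strand (Tgm1, 2 GAS and 1 ISRE), chr9:119339969-119340268 on the minus strand (Myd88, 1 of each, sharing bases), chr11:53769764-53770063 on the plus strand (Irf1, 1 GAS), chr11:48871371-48871670 on the minus strand (Irgm1, 2 overlapping ISRE) and chr19:34640639-34640938 on the plus strand (Ifit1, 2 ISRE), each read 5′ to 3′ in the direction of the gene.
Socs3: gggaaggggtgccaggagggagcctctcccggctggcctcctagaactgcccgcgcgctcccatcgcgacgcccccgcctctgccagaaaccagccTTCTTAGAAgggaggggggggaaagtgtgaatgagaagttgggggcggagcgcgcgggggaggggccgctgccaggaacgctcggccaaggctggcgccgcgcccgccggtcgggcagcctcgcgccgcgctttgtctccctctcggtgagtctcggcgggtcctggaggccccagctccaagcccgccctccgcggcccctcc
Tgm1: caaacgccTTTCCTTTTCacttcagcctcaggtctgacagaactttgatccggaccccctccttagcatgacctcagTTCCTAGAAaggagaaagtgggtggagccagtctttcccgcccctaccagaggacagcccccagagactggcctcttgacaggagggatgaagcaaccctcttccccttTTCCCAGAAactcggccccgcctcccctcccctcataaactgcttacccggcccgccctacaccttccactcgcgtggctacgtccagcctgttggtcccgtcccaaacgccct
Myd88: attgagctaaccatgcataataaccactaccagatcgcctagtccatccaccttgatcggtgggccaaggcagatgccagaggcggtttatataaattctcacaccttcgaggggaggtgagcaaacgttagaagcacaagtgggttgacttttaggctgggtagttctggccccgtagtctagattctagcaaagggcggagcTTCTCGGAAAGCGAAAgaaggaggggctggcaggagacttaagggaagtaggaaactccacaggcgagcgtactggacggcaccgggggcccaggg
Irf1: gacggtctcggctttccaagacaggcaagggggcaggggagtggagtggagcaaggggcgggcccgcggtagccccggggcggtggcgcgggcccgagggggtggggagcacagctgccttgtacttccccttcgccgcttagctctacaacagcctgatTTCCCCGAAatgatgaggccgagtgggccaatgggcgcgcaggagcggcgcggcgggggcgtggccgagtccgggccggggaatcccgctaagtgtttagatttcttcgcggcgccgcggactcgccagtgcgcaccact
Irgm1: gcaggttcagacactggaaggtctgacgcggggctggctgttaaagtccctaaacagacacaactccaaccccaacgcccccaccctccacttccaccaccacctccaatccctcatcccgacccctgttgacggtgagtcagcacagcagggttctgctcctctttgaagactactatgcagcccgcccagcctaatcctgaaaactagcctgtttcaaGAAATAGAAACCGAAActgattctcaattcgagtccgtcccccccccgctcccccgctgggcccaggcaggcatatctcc
Ifit1: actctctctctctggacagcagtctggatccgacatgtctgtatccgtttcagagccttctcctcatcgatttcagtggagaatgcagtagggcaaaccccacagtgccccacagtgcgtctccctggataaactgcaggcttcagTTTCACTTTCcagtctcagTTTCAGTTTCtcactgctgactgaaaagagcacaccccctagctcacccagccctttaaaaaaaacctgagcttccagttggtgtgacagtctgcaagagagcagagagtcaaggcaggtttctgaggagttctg

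Ligands and receptors of cytokines followed. Of 38 measured interleukin and growth factor genes 6 rose and 3 fell (23.7% called, median change -0.03). Lif, an IL-6 family cytokine, rose by 1.98 (SE 0.16, 3.94-fold), from 6.23, 6.08, 6.68 and 6.93 to 8.74, 8.62, 8.47 and 8.0, beside the family members Il6 and Osm. Il10, the anti-inflammatory cytokine, rose 2.37-fold from a dim level (1.24, SE 0.13, adjusted p = 2.63e-08), from 4.19, 4.32, 4.29 and 4.14 to 5.62, 5.81, 5.5 and 4.97. Il27, a subunit of IL-27, rose by 1.13 (SE 0.12), with 7.13, 7.32, 7.68 and 7.35 before and 8.44, 8.48, 8.3 and 8.77 after. Of 40 cytokine receptor chains 9 rose and 1 fell (25.0%, median 0.08). Beyond Il2ra, Il4ra and Il17ra, both chains of the IL-18 receptor rose, Il18rap by 1.12 (SE 0.13), from 9.81, 9.67, 9.88 and 10.04 to 11.04, 11.2, 11.15 and 10.51, and Il18r1 by 0.65 (SE 0.11), the latter not within high numbers.

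None of 23 measured chemokine genes was called, a list that leaves out Cxcl9, Cxcl10 and Cxcl11 given above, and 2 of the 23 had an unadjusted limma p under 0.05. Without IL-22 replicate 5 2 of them were called lower, and without untreated replicate 2 1 was. Of 18 chemokine receptors 3 rose and 1 fell (22.2%): besides Cxcr2, Ccr4, a receptor of type 2 helper T cells, rose by 1.18 (SE 0.13), from 5.84, 5.91, 6.04 and 6.1 to 7.3, 7.43, 7.16 and 6.73, Ccr2, the monocyte receptor for CCL2, by 0.82 (SE 0.13), and Cxcr4, the receptor that holds B progenitors in bone marrow, fell by 0.40 (SE 0.09).

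In the TNF superfamily 8 of 31 measured genes rose and 2 fell (32.3%, median 0.00). The receptor gene Tnfrsf1a rose 2.45-fold (1.29, SE 0.08, adjusted p = 2.8e-13) and read 10.02 to 10.10 in the 4 untreated and 11.07 to 11.51 in the 4 IL-22 arrays. Tnfsf14, for LIGHT, rose by 1.68 (SE 0.11) and Tnfsf9, for the 4-1BB ligand, by 1.57 (SE 0.11), with IL-22 values of 8.29, 8.55, 8.38 and 8.45 and of 8.2, 8.31, 8.2 and 8.56. Replicate 5 was not low in either. Ltbr, the lymphotoxin receptor, rose by 0.59 and Tnfrsf1b by 0.78. Of 18 checkpoint and costimulatory genes 4 rose and none fell (22.2%). Slamf1, a self-ligand receptor of lymphocytes, rose 3.07-fold from a dim level (1.62, SE 0.14), from 4.1, 4.22, 4.48 and 4.06 to 6.01, 6.27, 5.84 and 5.21, Cd244a by 0.62 (SE 0.11) and Pdcd1lg2, for PD-L2, by 0.47 (SE 0.15), the last not called without any 1 of IL-22 replicates 2, 3 and 5 and untreated replicates 2 and 3 (adjusted p up to 0.15).

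Transcription factor families changed unevenly. Of 7 AP-1 genes 6 rose (85.7%, median 0.78): Junb by 1.69, Fosl2 by 1.37 (SE 0.12), Fosl1 by 1.20 (SE 0.17), Fos by 0.78 (SE 0.18), Jun by 0.61 (SE 0.08) and Jund by 0.56 (SE 0.10), while Fosb changed by 0.21 (adjusted p = 0.28). Fos read 6.64, 6.63, 7.22 and 7.44 untreated and 7.66, 7.53, 7.41 and 8.43 with IL-22, so its groups overlap, and its adjusted limma p with only the natural receptor arrays in the fit was 0.0929. Of 13 EGR and other immediate early genes 7 rose (53.8%), led by Egr2, a zinc finger factor that lowers T cell activation, which rose 4.30-fold (2.10, SE 0.17), from 6.92, 6.78, 6.9 and 7.15 to 9.24, 9.35, 9.43 and 8.14, and by its corepressor gene Nab2 at 1.38 (SE 0.13). Its relatives Egr3 and Egr4 changed by 0.06 and -0.25 and Nr4a1, Nr4a2 and Nr4a3 by -0.06 to 0.13, without a call.

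Of 24 basic leucine zipper genes 8 rose and 3 fell (45.8%). Nfil3, a repressor of clock output genes that also shapes NK cells, rose 3.92-fold (1.97, SE 0.18), from 8.32, 8.39, 9.28 and 9.69 to 10.79, 10.9, 10.8 and 11.07. Cebpd, an acute phase regulator, rose by 1.36 (SE 0.10) and read 8.26, 8.28, 8.28 and 8.39 with IL-22, Batf, a partner of JUN in lymphocytes, by 1.06 (SE 0.08), and Batf2, an interferon-type gene, by 0.96 (SE 0.13), with 7.38 in replicate 5 against 8.24 to 8.36 in the others. Id1 rose by 1.93 (SE 0.12) and Id2 by 1.46 (SE 0.32), both inhibitors of E proteins, and Tcf3, which encodes the E proteins they bind, fell by 0.26 (SE 0.08, adjusted p = 0.0385), a call lost without any array but IL-22 replicate 2 and untreated replicate 5 (adjusted p up to 0.152) and with the paired block (adjusted p = 0.13). Id2 split by number range, with 6.53, 6.39, 7.95 and 8.29 untreated and 8.2, 8.43, 8.32 and 10.06 with IL-22, and rose by 1.86 within low and 1.94 within high numbers, with an adjusted p of 0.129 when only the natural receptor arrays were fitted. Mycn rose 3.67-fold (1.88, SE 0.20), from 9.44, 9.4, 8.83 and 8.64 to 11.17, 11.16, 11.12 and 10.36, and the antagonists of MYC Mxd4 and Mxi1 fell by 0.53 (SE 0.10) and 0.47 (SE 0.11). The retinoic acid receptor gene Rara, named after its values were seen, rose 3.97-fold (1.99, SE 0.18).

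KLF factors leaned down, with 4 of 15 lower and 1 higher (33.3%). They had 3 lower and 0 higher without IL-22 replicate 2, IL-22 replicate 3 or untreated replicate 4. Of 20 histone demethylases and TET enzymes 6 were lower and 3 higher (45%). Without IL-22 replicate 1, 2 or 3 or untreated replicate 4 or 5, 4 of these were lower and 3 higher. Without IL-22 replicate 5 8 were lower and 3 higher. Kdm6b, which removes methyl groups from histone H3 lysine 27, rose 2.57-fold (1.36, SE 0.14), from 9.44, 9.31, 10.01 and 10.23 to 11.14, 11.11, 11.18 and 11.02, and Tet2, which oxidises methylcytosine, rose by 0.82 (SE 0.08). Kdm7a fell by 0.57 (SE 0.09) on its brighter probe set, Kdm2b by 0.44 (SE 0.06) and Kdm4a by 0.33 (SE 0.06). Of 14 circadian clock genes none rose and 2 fell (14.3%, near the 11.4% of all genes), 5 fell without IL-22 replicate 5 and 1 without any of IL-22 replicates 1, 2 and 3 and untreated replicates 3 and 5, and of the 2 Nr1d2, a REV-ERB repressor, fell by 0.49 (SE 0.11).

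Genes that regulate signals or cytokine mRNA were called in numbers on both sides. Of 18 genes in the mRNA decay list 7 rose and none fell (38.9%, median 0.17), and not all of these 7 promote decay. Arid5a, which stabilises Il6 mRNA, rose 3.08-fold (1.62, SE 0.10), from 8.22, 8.34, 8.15 and 8.02 to 9.91, 10.08, 9.94 and 9.29, Zfp36l1, a relative of Zfp36, by 1.29 (SE 0.10), N4bp1, an RNase, by 0.96 (SE 0.07) and Zc3h12a, for the RNase regnase-1, by 0.82 (SE 0.10). Of 18 dual specificity phosphatase, Sprouty and Spred genes 7 rose and 4 fell (61.1%), with Spry2 up by 1.12 (SE 0.08), Dusp16 by 1.11 (SE 0.09), Spred1 by 0.76 (SE 0.11) and Dusp2 by 0.69 (SE 0.09). Of 14 phosphatases and adaptors of JAK-STAT signals other than SOCS genes 3 rose and 4 fell (50%). Sh2b2, an adaptor of JAK2, rose by 0.65 (SE 0.08), and the phosphatase genes Ptpn2 and Ptpn1 rose by 0.55 (SE 0.08) and 0.43 (SE 0.06), while Pias3, which blocks STAT3 from DNA, fell by 0.67 (SE 0.13), with 6.82, 6.77, 6.25 and 7.31 after IL-22 and 7.36 to 7.56 before, and Pias4 by 0.43 (SE 0.07).

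Brakes of PI3K signalling and FOXO genes fell more than they rose, 5 against 2 of 18 (38.9%). Pik3ip1, which inhibits PI3K at the membrane, fell by 0.84 (SE 0.12), from 8.15, 8.1, 8.23 and 8.24 to 7.19, 7.07, 7.24 and 7.86, Inpp5d, the phosphatase SHIP1, by 0.36 (SE 0.05), and Foxo3 by 0.67 (SE 0.14), with an adjusted p of 0.0832 when only the natural receptor arrays were fitted. Of 7 arrestin genes 2 fell (28.6% called), and 4 did without IL-22 replicate 5: Arrdc3, an adaptor for receptor ubiquitination, fell by 1.49 and Arrb2 by 0.32 (SE 0.08). Of 16 RGS genes 3 fell and 1 rose (25.0%), 2 fell and 0 rose without IL-22 replicate 2 or untreated replicate 3, with Rgs18, of platelets and myeloid cells, down by 0.66 (SE 0.09). Of 17 p53 and GADD45 genes 4 rose and 3 fell (41.2%): Sesn1, a stress sensor that restrains growth signals, fell 2.02-fold (-1.01, SE 0.10), from 9.52, 9.52, 9.55 and 9.71 to 8.26, 8.52, 8.51 and 8.97. Of 24 G1 cyclins, kinases and inhibitors 1 rose and 5 fell (25.0%), and the one that rose, Cdkn2d, for the CDK4 and CDK6 inhibitor p19, did so 4.27-fold (2.10, SE 0.09, adjusted p = 7.16e-16), from 9.08, 9.12, 9.47 and 9.64 to 11.49, 11.46, 11.49 and 11.25, while Cdkn1b, for the inhibitor p27, went from 9.25, 9.23, 9.4 and 9.67 to 7.69, 7.92, 7.8 and 8.99.

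Toll-like receptors and their adaptors had 5 of 20 genes higher and 1 lower (30%, median -0.02). Beyond Myd88, Tlr6 rose by 1.35 (SE 0.13), from 5.91, 6.11, 6.4 and 6.52 to 7.28, 7.52, 7.46 and 8.1, its partner Tlr2 by 0.61 (SE 0.09) and Tirap, which bridges TLR2 to MYD88, by 0.94 (SE 0.09). Irak3, which dampens these receptors, fell by 0.59 (SE 0.10). Of 22 acute phase genes 2 rose (9.09%, below the 11.4% of all genes): Lbp and Cfb, complement factor B, which rose by 0.57 (SE 0.19, adjusted p = 0.0488) and was not called when IL-22 replicate 2, IL-22 replicate 5, untreated replicate 2 or untreated replicate 3 was left out (adjusted p up to 0.236).

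Adhesion and growth control genes changed in small sets. Of 28 integrin, selectin and tetraspanin genes 5 rose and 2 fell (25.0%), with Icam1 up by 1.04 (SE 0.10), Itga6 by 1.01 (SE 0.07), Itgav by 0.81 (SE 0.08), and Itga4, a chain of the VLA-4 integrin, down by 0.35 (SE 0.06). Of 24 TGF-beta and SMAD genes 6 rose and 2 fell (33.3%). Smad7, the inhibitory SMAD, rose by 0.71 (SE 0.09) and the SMAD corepressor gene Skil by 0.73 (SE 0.12). Tgfb3 rose by 0.97 (SE 0.15), from 6.64, 6.41, 6.43 and 6.59 to 7.7, 7.78, 7.75 and 6.71, so that replicate 5 was near the untreated level. Of 14 Notch genes 2 rose (14.3%, near the 11.4% of all genes), Notch1 by 1.04 (SE 0.09), from 7.65, 7.77, 8.01 and 7.91 to 8.91, 9.13, 8.87 and 8.57, and the coactivator gene Maml1 by 0.52 (SE 0.08). Of 17 nutrient transporters 6 rose (35.3%), among them Slc2a1, the glucose transporter GLUT1, by 0.93 (SE 0.21) and the neutral amino acid transporter gene Slc1a4 by 0.86 (SE 0.16). RNA polymerase I genes had 5 of 15 higher (33.3%), polyamine genes 3 of 6 (50%), aminoacyl-tRNA synthetases 3 of 18 (16.7%) and nucleotide synthesis genes 3 of 24 (12.5%), none lower, the last a share near that of all genes. On the probe sets used no change was above 0.60. These counts moved when 1 array was left out. RNA polymerase I genes called fell to 2 without IL-22 replicate 2, IL-22 replicate 3 or untreated replicate 4 and to 3 without untreated replicate 3 or 5. In addition, 1 RNA polymerase I gene not called on its brightest probe set (-0.01) read higher on its others, by 0.32 to 0.92. These other probe sets were not tested singly. Polyamine genes called fell to 0 without IL-22 replicate 3 and to 1 without IL-22 replicate 1 or 2 or untreated replicate 4 or 5. Without IL-22 replicate 5 6 synthetase genes were higher, and 5 nucleotide synthesis genes were higher and 1 lower. Atf6, a sensor of endoplasmic reticulum stress named after its values were seen, rose 3.11-fold (1.63, SE 0.07) and read 9.58 to 9.67 in the untreated and 11.12 to 11.39 in the IL-22 arrays.

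Erythroid and megakaryocyte genes fell: 8 of 16 measured, none higher (50% called, median change -0.25). Gata2, a factor of stem cells, mast cells and early erythroid cells, was among the brightest, and went from 12.3, 12.26, 12.3 and 12.3 to 11.11, 10.96, 11.06 and 11.9 (-1.04, SE 0.11, adjusted p = 7.67e-08). Nfe2, for the p45 subunit that acts at globin genes and in platelet formation, went from 10.53, 10.55, 10.67 and 10.71 to 9.24, 9.36, 9.32 and 10.1 (-1.11, SE 0.11). Gfi1b read 8.69 in replicate 5 and 8.74 to 9.04 in the other IL-22 arrays, and Klf1 7.4 and 7.04 to 7.26, so that in these genes replicate 5 lay near the others. Lyl1, a partner of erythroid factors from the helix-loop-helix list, fell by 0.77 (SE 0.09), Zfpm1, for the GATA cofactor FOG1, by 0.56 (SE 0.09) and Ldb1 by 0.23 (SE 0.06). Gata2 changed by -1.24 within low and -0.41 within high numbers, and Nfe2 by -1.23 and -0.58. In mast cell markers, of which 10 were measured, none was called and none had an unadjusted limma p under 0.05.

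The change after IL-22 was then set against the change after GFP-mCherry in synthetic receptor cells, which shares no array with it, by testing the difference of both changes. The lines differ in receptor and ligand at once, which cannot be told apart. The difference was called for 2718 genes (13.6%), with the IL-22 change the higher in 878 (4.40%) and the lower in 1840 (9.23%). GFP-mCherry by itself called 5183 genes (26%), 14.2% of all genes higher and 11.8% lower. Of the 46 antiviral genes 5 were higher and 3 lower after GFP-mCherry, with a median change of -0.04, and the IL-22 change was the higher in 19 and the lower in 2. Of the 15 interferon gamma-type genes 2 rose and 3 fell after GFP-mCherry (median -0.12), and the IL-22 change was the higher in 5.

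Oas2 changed by 2.10 after IL-22 and by -0.31 after GFP-mCherry, a difference of 2.41 (adjusted p = 1.01e-09), and Irgm1 by 1.68 and -0.14, a difference of 1.82 (adjusted p = 0.000151). The differences of Trim30a (1.60), Parp14 (1.51), Rtp4 (1.5), Irf9 (1.11), Herc6 (1.10), Cxcl10 (1.07) and Slfn5 (1.09) were called as well. Irf1 rose in both, by 0.85 (SE 0.10) and 0.93 (SE 0.08), and the difference of -0.08 (SE 0.13, adjusted p = 0.763) was not called, which does not show that the changes are alike. Gbp3 changed by 0.53 and 0.69 and Psmb10 by 0.43 and 0.49, with differences of -0.16 and -0.06 that were not called. Stat2 rose after IL-22 and fell by 0.27 after GFP-mCherry, a difference of 1.49 (adjusted p = 2.42e-11). Outside the interferon lists Tnf rose by 1.85 and 1.96 and Ier3, an early response gene, by 1.75 and 2.16, without a called difference, and Zc3h12a by 0.82 and 2.2, the GFP-mCherry change being the larger (difference -1.38, adjusted p = 1.51e-08). Il2ra changed by 3.98 and -0.07, and Cxcr2 by 2.57 and 0.00.

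**Figure D5:**
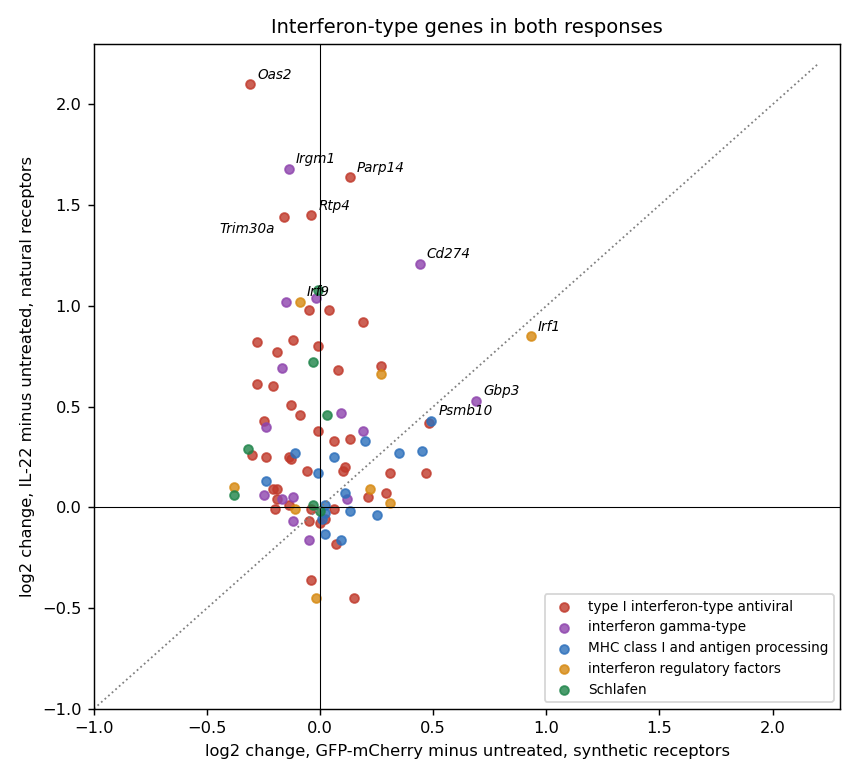
Change in log2 intensity after IL-22 in natural receptor cells (vertical axis) against the change after GFP-mCherry in synthetic receptor cells (horizontal axis) for measured members of 5 interferon-type lists, coloured by list, with a dotted line where both are equal. Oas2, Irgm1, Parp14, Rtp4 and Trim30a lie high and near 0 on the horizontal axis, while Irf1, Psmb10 and Gbp3 lie near the dotted line.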

How the data were processed

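RNA of 26 samples was hybridised to Affymetrix mouse gene arrays. The deposited log2 values, 1 per probe set and array, were made by the authors with Affymetrix Expression Console 4.0, per the submitters' processing notes; the background correction and summary algorithm are not given in the sources used here. Of 35556 probe sets 21789 carry 1 gene symbol, 1621 several and 12146 none in the platform annotation, and 21698 of the 21789 matched a RefSeq gene by its identifier. Probe sets with 1 symbol were used, the brightest for each of 19938 genes (999 genes have several). Nothing was normalized again. Microarrays give no read depth, and the number of arrays limits the precision.

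limma 3.58.1 (R 4.3.3) was fitted to all 26 arrays in 5 groups, with Benjamini-Hochberg adjustment over all 19938 genes and a threshold of 0.05, and was tested on simulated data. The simulated arrays had independent noise and no split by number range, unlike the natural receptor arrays, so that test does not bear on the split. Replicate numbers come from the titles. Deviations from the group means correlated at 0.378, 0.313 and 0.621 for same-numbered arrays 2, 3 and 5. For differently numbered arrays of 1 number range they correlated at 0.149 to 0.362, so the correlations follow the range as well as the number. The main fit did not pair arrays. Only an alternative fit, with the number as a block, took the numbers to pair samples. Other alternatives changed the normalization, centring, probe sets, filter, prior, weights, arrays in the fit and number range, and left out each array in turn.

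Named genes are the 20 largest rises and 15 largest falls among called genes (predicted loci, small RNAs, olfactory receptors and antigen receptor segments left out), the called genes with the 6 smallest p in each of 50 lists, all genes of lists of 15 or fewer and of interferon-type lists, and interferon-type or cytokine receptor genes whose response differed from that to GFP-mCherry. Genes outside this rule are marked. The comparison and lists were chosen with earlier results of these data known. Some genes are not reported here.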

Additional observations from a re-analysis of the deposited data

Results flagged for a closer look

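Dixon's test at the 95% level was applied to 448 sets of 4 arrays, over the 224 genes named in the text. In 52 sets 1 array stood farther from the others than it allows, and IL-22 replicate 5 was that array in 44. Independent sets would give about 1 in 20 by chance, but these share the same 8 arrays. IL-22 replicate 5 is the only IL-22 array with a high number, and 2 untreated arrays have one. A gene that follows the number split can therefore flag this array, so the count does not show that it is unusual. Among interferon-type genes it read low, on the side of the untreated cells, for Irgm1 (8.96 against 10.77 to 11.05), Cxcl10 (5.59 against 6.76 to 6.96), Oas2 (8.79 against 9.8 to 10.0), Oasl2 (6.57 against 7.52 to 7.7), Parp14 (9.45 against 10.26 to 10.39), Irf9 (8.36 against 9.07 to 9.14), Xaf1 (6.59 against 7.0 to 7.03), Adar (9.15 against 9.56 to 9.6), Oas3 (7.07 against 7.41 to 7.47) and Batf2 (7.38 against 8.24 to 8.36), and high for Cd274 (10.01 against 8.85 to 9.0), Ifi27 (10.12 against 9.38 to 9.48), Ifngr2 (10.95 against 10.19 to 10.31) and Tap2 (8.85 against 8.59 to 8.62). Among the myeloid markers it read high for Mpo (10.87 against 6.97 to 7.05), Itgam (12.05 against 8.73 to 8.98), S100a9 (9.69 against 6.25 to 6.55), Lyz2 (7.89 against 5.15 to 5.19) and Cd68 (10.33 against 8.55 to 8.66), levels that untreated replicates 4 and 5 share. It was also low for Egr2 (8.14 against 9.24 to 9.43), Tgfb3 (6.71 against 7.7 to 7.78), Slc1a4 (8.81 against 9.66 to 9.69), Osm (9.68 against 10.5 to 10.62), Prag1 (10.09 against 10.9 to 10.96), Mycn (10.36 against 11.12 to 11.17), Gzmb (12.52 against 13.24 to 13.36), Nr4a2 (8.01 against 8.68 to 8.77), Il15ra (7.91 against 8.4 to 8.47), Il4ra (12.34 against 12.81 to 12.89), Cdkn2d (11.25 against 11.46 to 11.49), Stat3 (11.7 against 11.88 to 11.91) and Spn (9.61 against 9.65 to 9.66). It was high for Id2 (10.06 against 8.2 to 8.43), Ankrd37 (8.5 against 7.0 to 7.15), Cfb (8.4 against 7.22 to 7.43), St3gal1 (10.0 against 8.86 to 9.01), Gata2 (11.9 against 10.96 to 11.11), Nfe2 (10.1 against 9.24 to 9.36), Mxi1 (9.24 against 8.56 to 8.67), Slc2a1 (12.81 against 12.29 to 12.33), Stat6 (10.16 against 9.69 to 9.73), Cxcr4 (11.6 against 11.17 to 11.23), Tet2 (9.59 against 9.3 to 9.33) and Cebpd (8.39 against 8.26 to 8.28). In other arrays the values that stood apart were Ifngr1 in IL-22 replicate 1 (8.25 against 8.44 to 8.46), Irf8 in IL-22 replicate 1 (6.52 against 6.3 to 6.34), Jund in IL-22 replicate 2 (10.07 against 9.86 to 9.88), Tapbpl in untreated replicate 2 (7.35 against 7.1 to 7.13), Gata2 in untreated replicate 3 (12.26 against 12.3), Cebpd in untreated replicate 5 (7.13 against 6.86 to 6.9), Il4ra in untreated replicate 5 (8.96 against 8.77 to 8.78) and Sesn1 in untreated replicate 5 (9.71 against 9.52 to 9.55).

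The response to IL-22 differed from that to GFP-mCherry, by limma's test of the difference (adjusted p under 0.05), in 42 of the interferon-type and cytokine receptor genes named. The log2 differences, IL-22 minus GFP-mCherry, were largest among receptor chains in Il2ra (4.05), Il4ra (2.76) and Il17ra (2.3), with Il18rap (1.0), Il18r1 (0.74) and Il15ra (0.67) next. Among antiviral genes they were Oas2 (2.41), Trim30a (1.6), Parp14 (1.51), Rtp4 (1.5), Herc6 (1.1), Oasl2 (1.03), Ifit1 (0.96), Zbp1 (0.95), Eif2ak2 (0.94), Dtx3l (0.89), Oas3 (0.81), Helz2 (0.8), Parp9 (0.73), Oas1b (0.68), Xaf1 (0.64), Ddx58 (0.6), Trim25 (0.42) and Adar (0.39), and below 0 in Ifit2 (-0.6) and Pml (-0.31). Genes of the interferon gamma kind gave Irgm1 (1.82), Cxcl11 (1.17), Cxcl10 (1.07), Gbp7 (0.85) and Cxcl9 (0.63), Schlafen genes Slfn5 (1.09), Slfn4 (0.75), Slfn8 (0.61) and Slfn9 (0.44) and antigen presentation genes Tap1 (0.38) and Nlrc5 (0.36). Interferon regulatory factors went both ways, with Irf9 (1.11) and Irf2 (0.47) above 0 and Irf3 (-0.29) and Irf5 (-0.44) below it, and the receptor chain Ifngr2 gave -1.18.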

How the results depend on the processing

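The rule for named genes gave 446 genes, not all of them named in the text, and of the 247 called among them 116 kept their call under every alternative tried and 204 under every fit that left out 1 array. With replicate numbers paired as a block 1004 genes were called higher and 1180 lower, and 221 of the 247 kept their call; the blocked p is given in the report for genes named there that lost it, and no other call named there was changed. With only the natural receptor arrays in the fit 686 genes were called higher and 536 lower, 5 of the interferon gamma-type genes and 1 MHC class I gene. Among genes named in the report the calls of Irf7, Rtp4, Id2, Fos, Foxo3 and Ankrd37 (values given there), and of Oas3 (adjusted p 0.0523), Cxcl9 (0.0677), Pml (0.0864), Cxcr4 (0.0798), Mxi1 (0.12) and Ldb1 (0.0765) were lost in that fit by limma, as were those of the genes that lost theirs without 1 array, other than Oas1b and Pdcd1lg2. Median centring left 716 lower. Within low numbers 1957 were lower and 4583 differed from the GFP-mCherry response. Within high numbers, where 1 array stands for IL-22, 529 were higher, 230 lower and 129 changed at least 2-fold, 916 differed from GFP-mCherry, and 5 antiviral, 1 interferon gamma-type and 0 MHC class I genes were called. Beside those given in the report, the genes named there whose call was lost within high numbers are Adar, Arrb2, Cd244a, Cd79b, Cxcl9, Cxcr4, Dtx3l, Foxo3, Gbp3, Gbp5, Ifi35, Ifit2, Ifitm3, Ifngr1, Iigp1, Inpp5d, Irak3, Irf5, Jund, Kdm2b, Kdm4a, Kdm7a, Ldb1, Mxd4, Mxi1, Nr1d2, Oas1b, Pdcd1lg2, Pias4, Pml, Psmb10, Psme2, Smad7, Spn, Tap1, Tapbpl, Tcf3, Tor3a and Trim21, and Klf11. With the number range as a term 1290 genes were called higher and 1731 lower, and 242 of the 247 kept their call. In that fit 27 antiviral, 7 interferon gamma-type and 5 MHC class I genes were called, and 4153 genes differed from GFP-mCherry. Leaving out genes with a mean under 6 left 4 interferon gamma-type genes called, and array weights gave 8 MHC class I genes.

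Leaving out 1 array gave 879 to 1335 genes higher, 837 (without IL-22 replicate 3) to 1777 (without IL-22 replicate 5) lower, 184 to 263 changed at least 2-fold, 20 to 25 antiviral, 6 to 9 interferon gamma-type and 2 to 7 MHC class I genes called, and 2136 to 3438 differing from GFP-mCherry.

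Within high numbers, where 1 array stands for IL-22, the change had the opposite sign in a few genes. These were Rtp4 (-0.33, SE 0.15), Trim21 (-0.07, SE 0.09), Adar (-0.02, SE 0.09), Gbp3 (-0.01, SE 0.2), Iigp1 (-0.25, SE 0.16) and Klf11 (0.06, SE 0.1). In Trim21, Adar, Gbp3 and Klf11 the change was smaller than its SE, so no reversal is shown. The cause was not tested. The small number of arrays limits changes of the size of the last few called genes.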
